A study of Homo sapiens with 18 samples.

Results

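The genes described here are the structural subunits of oxidative phosphorylation, 91 protein-coding genes among the 60658 gene IDs of the expression table. They were chosen by symbol alone: the MT-ND, MT-CO, MT-CYB and MT-ATP genes of the mitochondrial genome, and the nuclear NDUFA, NDUFB, NDUFC, NDUFS and NDUFV genes, SDHA to SDHD, the UQCR genes with CYC1, the ubiquitous COX subunits, and the ATP5F1, ATP5M and ATP5P genes. The mitochondrial genome carries 13 of them and the nucleus 78. Grouped by symbol, 44 genes fall under complex I (7 mitochondrial), 4 under complex II (none mitochondrial), 10 under complex III (1 mitochondrial), 13 under complex IV (3 mitochondrial) and 20 under complex V, the ATP synthase (2 mitochondrial). NDUFA4 is counted under complex I for its symbol, although its protein is now regarded as a subunit of complex IV.

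RNA was taken from 18 plates of human acute myeloid leukaemia cells in 6 groups of 3. THP1 is an established line of monocytic type that the labels give as heterozygous NRAS-G12D. B11 is 1 subclone of THP1, given as heterozygous NRAS-G12V, which carries a lentiviral doxycycline-inducible NRAS with the G12V mutation and GFP, and a second vector with Cas9, a puromycin resistance gene and a pair of guide RNAs placed around the start codon of the NRAS locus. Each line was grown with 0, 1 or 10 ug/ml doxycycline for 5 days, and every plate of B11, untreated ones included, carried both vectors and had come from the puromycin-selected clone. Only B11 had been exposed to doxycycline, GFP selection and puromycin during its derivation, so that clonal origin, vectors and selection cannot be told apart in comparisons of B11 with THP1. The plates of a line were split from 1 culture, and p-values therefore measure only the spread between plates.

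Oxidative phosphorylation passes electrons from NADH and succinate through complexes I to IV to oxygen, and the resulting proton gradient drives ATP synthase. Complexes I, III, IV and V are built from subunits of both genomes, whereas complex II is nuclear only. The mitochondrial genome is read as long polycistronic transcripts from both strands that are cut into single RNAs, and the nuclear genes are transcribed one by one, many from GC-rich promoters bound by factors such as NRF1, the ETS-family factor GABPA and YY1.

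The 13 mitochondrial genes lie close together, which bears on how their RNA can be counted. In the GENCODE 29 annotation of GRCh38, MT-ATP8 and MT-ATP6 share 46 bases at chrM:8527-8572, read in different frames. They are shown because these were the 2 mitochondrial members that did not pass in B11 at 10 against 0 ug/ml, with the start codon of MT-ATP6 and the stop codon of MT-ATP8 in capitals:
MT-ATP8 and MT-ATP6 shared bases: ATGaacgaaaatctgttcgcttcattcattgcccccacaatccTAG
MT-ND5 and MT-ND6, the mitochondrial members with the largest changes in that comparison, abut end to end on opposite strands. The 60 bases across their border, chrM:14119-14178 on the forward strand, are shown with the stop codon of MT-ND5 followed directly by the reverse complement of that of MT-ND6 in capitals:
border of MT-ND5 and MT-ND6: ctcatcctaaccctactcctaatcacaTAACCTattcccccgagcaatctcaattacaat
The sources used here do not state whether the libraries kept strand. Without strand, reads that cross this border cannot be assigned to 1 of the pair. Reads within either gene could then also come from the transcript of the other strand.

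For the nuclear genes, 63 of the 78 members were matched by identifier or symbol, on the same chromosome and strand, to a RefSeq promoter (GRCh38.p14), 250 bases before to 50 after the annotated start. Among the unmatched members were NDUFA4, NDUFB5, NDUFB9, NDUFC2, NDUFS5, SDHC, CYC1, UQCRB, COX6C, ATP5F1B, ATP5F1D, ATP5MC3, ATP5MF and ATP5MGL. The letters GCGCA, any base and then GCGC, a core of NRF1 sites, were found on either strand in 16 of the 63 (25.4%), against 6.28% of all 27305 promoters of this length in the table. CCGGAAG, a core of ETS-family sites, was found in 20 (31.7%, against 10.7% of all), and AAGATGGC, a core of YY1 sites, in 11 (17.5%, against 3.03% of all). The printed promoters hold no overlap between these motifs. At least 1 of the 3 was present in 38 members (60.3%, against 17.9% of all). Promoters of 4 members that were higher at 10 than at 0 ug/ml in B11 and of ATP5F1E, which was lower, are shown with these motifs in capitals, picked to include promoters with and without them. NDUFS7 (chr19:1383657-1383956, forward strand) has the YY1 letters just after its start, SDHB (chr1:17053983-17054282, reverse strand) has ETS and YY1 letters, UQCRC1 (chr3:48609597-48609896, reverse strand) has NRF1 and YY1 letters. NDUFB6 (chr9:32573110-32573409, reverse strand), among the members with the largest rise, and ATP5F1E (chr20:59032286-59032585, reverse strand) have none of the 3, and neither does NDUFS8, another such riser.
NDUFS7 promoter: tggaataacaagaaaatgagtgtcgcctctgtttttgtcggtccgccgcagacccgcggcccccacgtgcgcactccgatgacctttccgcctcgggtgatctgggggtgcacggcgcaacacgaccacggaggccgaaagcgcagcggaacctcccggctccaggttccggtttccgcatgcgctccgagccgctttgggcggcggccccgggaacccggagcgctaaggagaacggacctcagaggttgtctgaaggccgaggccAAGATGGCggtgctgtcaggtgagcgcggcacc
SDHB promoter: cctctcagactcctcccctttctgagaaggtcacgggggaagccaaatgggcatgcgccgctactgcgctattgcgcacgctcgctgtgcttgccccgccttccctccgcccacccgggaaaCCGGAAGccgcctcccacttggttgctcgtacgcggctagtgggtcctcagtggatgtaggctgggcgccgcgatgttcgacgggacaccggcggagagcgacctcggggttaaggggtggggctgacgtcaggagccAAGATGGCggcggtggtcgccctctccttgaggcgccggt
UQCRC1 promoter: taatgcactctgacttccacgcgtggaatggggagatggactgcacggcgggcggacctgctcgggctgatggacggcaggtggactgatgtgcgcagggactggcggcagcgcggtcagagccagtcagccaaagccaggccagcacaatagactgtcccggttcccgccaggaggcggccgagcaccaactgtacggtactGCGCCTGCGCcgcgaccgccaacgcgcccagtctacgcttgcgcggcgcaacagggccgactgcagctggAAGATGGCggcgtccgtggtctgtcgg
NDUFB6 promoter: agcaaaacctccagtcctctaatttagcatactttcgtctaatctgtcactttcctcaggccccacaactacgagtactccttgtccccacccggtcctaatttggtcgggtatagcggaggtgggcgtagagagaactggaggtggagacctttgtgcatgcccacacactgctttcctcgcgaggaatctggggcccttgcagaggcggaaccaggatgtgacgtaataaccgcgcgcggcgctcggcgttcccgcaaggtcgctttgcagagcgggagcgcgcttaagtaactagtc
ATP5F1E promoter: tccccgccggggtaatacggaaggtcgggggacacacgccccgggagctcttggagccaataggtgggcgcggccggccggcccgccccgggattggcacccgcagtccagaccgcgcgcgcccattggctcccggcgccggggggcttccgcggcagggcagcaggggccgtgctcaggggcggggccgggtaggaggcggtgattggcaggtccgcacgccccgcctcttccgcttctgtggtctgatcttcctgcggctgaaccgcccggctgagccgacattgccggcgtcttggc
Of the 43 matched members that were higher in B11 at 10 than at 0 ug/ml, 29 held at least 1 of the 3 motifs. Of the 6 matched members that were lower 2 did (NDUFS3 and ATP5MG, both with the ETS letters), and of the 14 without a call 7 did. These are counts of letters in a fixed window, with no test.

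The depth of the libraries, estimated from the FPKM worth of 1 fragment in 1643 single-transcript genes, lay between 12.2 and 17.6 M fragments. Pearson's r between replicates was 0.938 to 0.957 over genes, which are not independent observations. FPKM stands for fragments per kilobase of transcript, relative to sequencing depth. Plates B and C of the 1 ug/ml B11 group held 1 unnamed gene ID at 76850 and 42501 FPKM, 6.51% and 3.76% of their FPKM sums. Some of the counts that rest on this group are therefore also given without them. Those of B11 at 1 against 0 ug/ml are given with all plates only. NRAS itself, the targeted gene, measured 19.8, 22 and 21.1 FPKM in untreated B11 and 28, 27.7 and 28.2 FPKM at 10 ug/ml, a log2 rise of 0.40 ± 0.07 (SE, limma adjusted p = 0.000276). Reads of the edited locus and of the vector are not separated in this value, so it does not check the edit. Monocytic markers were present (10 of 10 at a mean of at least 1 FPKM in 4 groups, and 9 of 10 in the untreated and the 10 ug/ml groups of B11, where CD14 averaged 0.841 and 0.976 FPKM), and CD3E and HBB were at 0 in every library. The summed level of the 10 monocytic markers was 4429 to 5703 FPKM in untreated B11 and 1445 to 1945 FPKM in the other 5 groups. Its largest parts in untreated B11 were LYZ and CD68, at means of 2781 and 1399.9 FPKM against 731 and 308 FPKM in untreated THP1. CD14, ITGAM and MPO had lower means there, at 0.841, 3.37 and 7.7 FPKM against 11.3, 19.4 and 9.06 FPKM in untreated THP1. The part of these markers in the changes below was not tested. In bulk RNA, a shift in the mix of cells and a shift in RNA per cell cannot be told apart.

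Mitochondrial subunit RNAs were abundant. Their mean levels over the 18 libraries ran from 977 FPKM (MT-ND6) to 5331 FPKM (MT-ND4L), with a median of 2975 FPKM, and those of the 77 nuclear members kept for testing ran from 18.4 FPKM (UQCRFS1) to 1788 FPKM (ATP5F1B), with a median of 258 FPKM. A gene was kept with at least 1 FPKM in at least 3 libraries. Only ATP5MGL, a relative of the ATP synthase g subunit gene, failed, at 0 FPKM in 14 libraries and at most 0.288 FPKM in the other 4. Annotated numbered pseudogenes exist for all 13 mitochondrial members and 45 nuclear ones, and 33 nuclear members overlap exons of a gene on the other strand, so single values of these genes may include reads of another locus.

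With doxycycline, the median of the mitochondrial subunits went down and that of the nuclear subunits up in B11, and no subunit passed the test in THP1. The median of the 13 mitochondrial members, as log2(FPKM + 1), was 11.94 ± 0.24 (SD, n = 3) without doxycycline in B11, 11.70 ± 0.05 with 1 ug/ml and 11.33 ± 0.28 with 10 ug/ml. The median of the 77 nuclear members was 7.72 ± 0.06, 8.01 ± 0.05 and 8.15 ± 0.02 in the same groups. In THP1 at 0, 1 and 10 ug/ml the mitochondrial medians were 11.33 ± 0.13, 11.42 ± 0.06 and 11.49 ± 0.12, and the nuclear medians 7.93 ± 0.13, 7.95 ± 0.05 and 7.85 ± 0.06. Untreated B11 thus had the widest distance between the genomes, 4.09 to 4.45 log2 units per library, and B11 at 10 ug/ml one of 2.87 to 3.42, with the 9 THP1 libraries at 3.35 to 3.83. The ranges of the untreated and the 10 ug/ml B11 libraries did not overlap, while B11 at 10 ug/ml and THP1 at 0 ug/ml did.

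**Figure D1:**
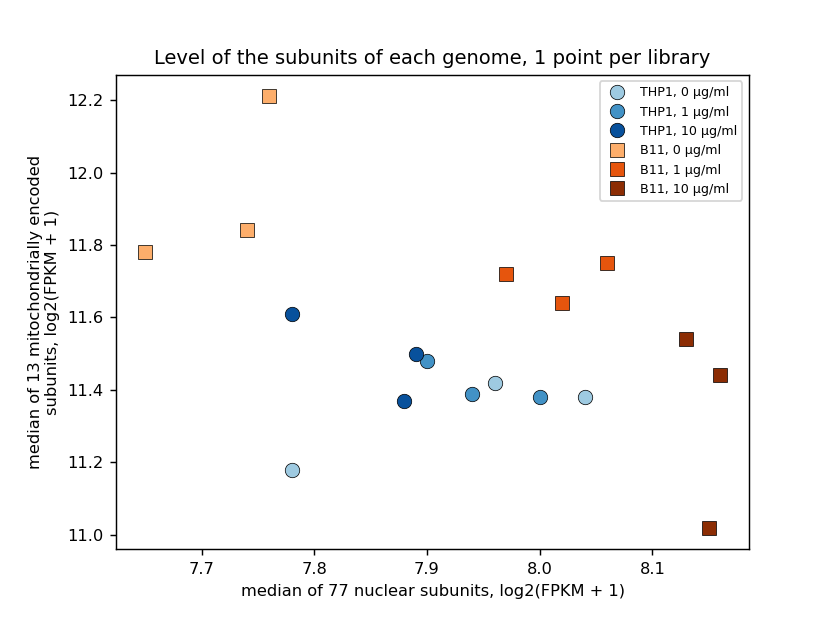
Each point is 1 of the 18 libraries, with the median log2(FPKM + 1) of the 77 nuclear subunits on the x axis and of the 13 mitochondrially encoded subunits on the y axis; circles are THP1, squares B11, darker with dose. Untreated B11 lies at the upper left (nuclear medians of 7.65 to 7.76), B11 at 10 ug/ml at the lower right (8.13 to 8.16), and THP1 between them on the x axis.

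As a share of all FPKM in a library, the 13 mitochondrial members made up 5.11, 3.99 and 4.14% in untreated B11, 3.6, 3.56 and 3.7% at 1 ug/ml, and 3.42, 2.98 and 2.27% at 10 ug/ml. The nuclear members together made up 2.02, 2.15 and 2.16% in untreated B11, 2.54, 2.37 and 2.38% at 1 ug/ml, and 2.72, 2.82 and 2.9% at 10 ug/ml. In both sets the untreated and the 10 ug/ml libraries stood apart. Plate C at 10 ug/ml was the only B11 library in which the nuclear members summed to more than the mitochondrial ones. THP1 libraries held 3.21 to 4.09% mitochondrial and 2.39 to 2.62% nuclear subunit FPKM over all doses.

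In B11 at 10 against 0 ug/ml, 11 of 13 mitochondrial members were lower and none was higher at a limma adjusted p under 0.05, with a median log2 change of -0.83. Of the 77 nuclear members, 53 were higher and 7 lower, with a median of 0.39, while 17 passed in neither direction. Over all 17555 genes tested, 21.6% were higher and 21.3% lower, with a median of -0.02. At 1 against 0 ug/ml, 7 mitochondrial members were lower and none higher (median -0.35), and 37 nuclear members were higher and 8 lower (median 0.28), beside 19.8% higher and 17.3% lower of all genes. Both comparisons share the 3 untreated libraries, so they are not independent.

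**Figure D2:**
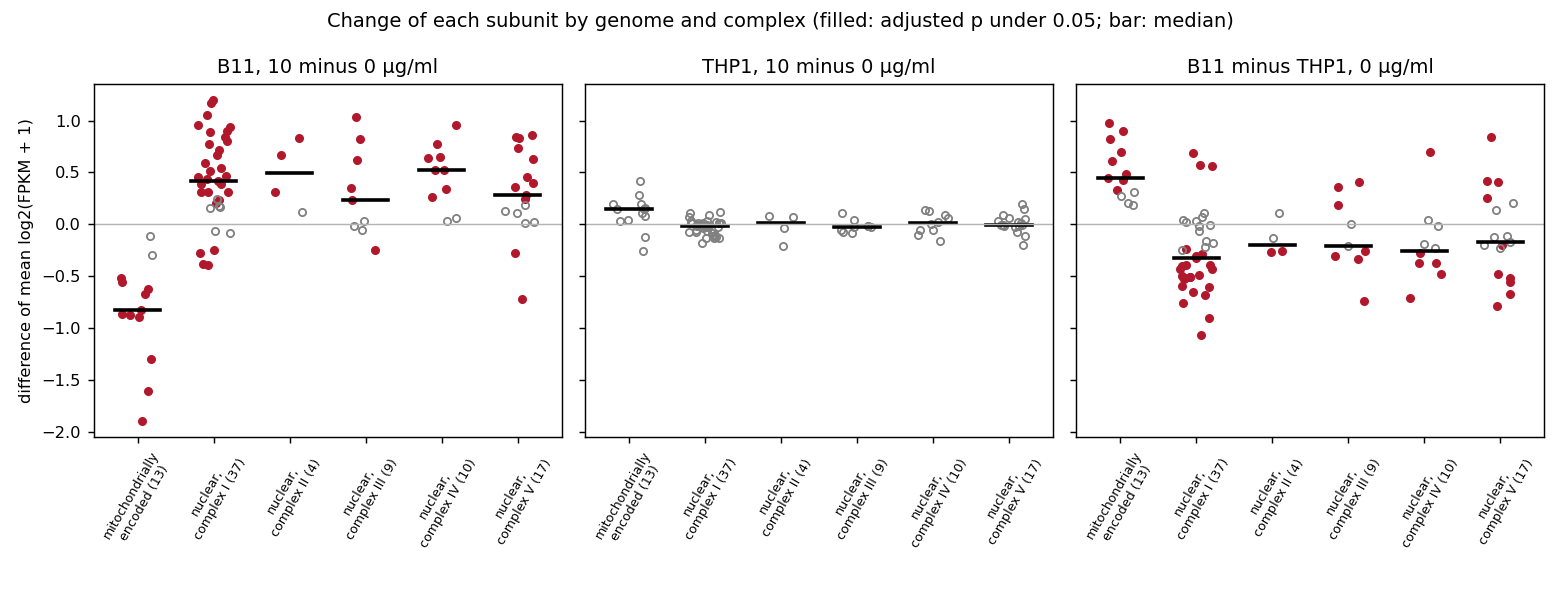
Differences of mean log2(FPKM + 1) for each subunit (points), grouped by genome and complex, in B11 at 10 against 0 ug/ml, THP1 at 10 against 0 ug/ml, and B11 against THP1 without doxycycline; filled points passed an adjusted p under 0.05 and bars are medians. Mitochondrial members lie below 0 (median -0.83) and most nuclear ones above it (median 0.39) in the first panel, none of the 90 is filled in the second, and the directions are exchanged in the third (medians 0.45 and -0.24).

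Among the mitochondrial subunits of complex I, MT-ND6 and MT-ND5 changed most. MT-ND6, a membrane-arm subunit and the only protein gene on its strand, measured 1641, 1122 and 1278 FPKM in untreated B11, 773, 769.6 and 762 FPKM at 1 ug/ml, and 415, 409.7 and 270.1 FPKM at 10 ug/ml. The 3 doses did not overlap, and at 10 ug/ml every plate was below every THP1 library, the lowest of which was 838 FPKM. Its log2 change was -0.79 ± 0.15 at 1 ug/ml (SE, limma adjusted p = 0.000777) and -1.89 ± 0.15 at 10 ug/ml (adjusted p = 1.22e-07).

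MT-ND5, a large proton-pumping subunit, had 1695, 1091 and 1286 FPKM in untreated B11, 764, 803 and 787 FPKM at 1 ug/ml, and 519, 463 and 348 FPKM at 10 ug/ml. The doses again did not overlap, and the log2 change at 10 ug/ml was -1.61 ± 0.14 (limma adjusted p = 3.17e-07). The ratio of MT-ND6 to MT-ND5 was 0.997 ± 0.0301 (SD, n = 3) without doxycycline, 0.979 ± 0.028 with 1 ug/ml and 0.821 ± 0.0573 with 10 ug/ml, so these neighbours fell nearly in step at the lower dose. The other 5 members of complex I, which are also membrane-arm subunits, fell less at 10 ug/ml: MT-ND1 by 0.89 on the log2 scale, MT-ND3 by 0.83, MT-ND4 by 0.67, MT-ND2 by 0.56 and MT-ND4L by 0.52, with adjusted p from 1.98e-06 to 0.00646. MT-ND4L shares its last 7 bases with MT-ND4, and its call was lost when only the compared groups were fitted. At 1 ug/ml MT-ND3 (-0.68), MT-ND2 (-0.37) and MT-ND4 (-0.35) also passed, the last a call lost in 21 of 30 alternative analyses, whereas MT-ND1 (-0.29 ± 0.12) and MT-ND4L (-0.25 ± 0.14) did not.

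**Figure D3:**
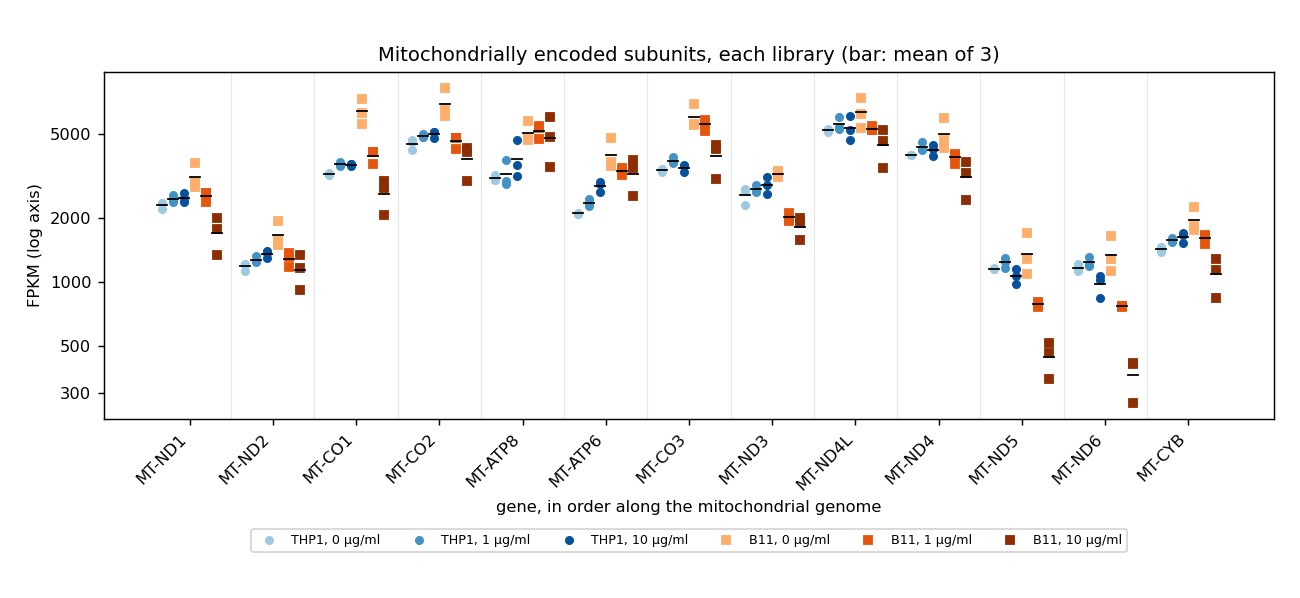
FPKM on a log axis for the 13 mitochondrially encoded subunits in gene order, 1 point per library, coloured by line (circles THP1, squares B11) and dose, with a bar at each group mean. For MT-ND5 and MT-ND6 the 3 plates of B11 at 10 ug/ml lie at 270.1 to 519 FPKM, below all other libraries, while the MT-ATP8 groups of B11 overlap.

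MT-CYB, the haem-bearing subunit of complex III, had 2266, 1767 and 1842 FPKM in untreated B11, 1506, 1664 and 1644 FPKM at 1 ug/ml, and 1282, 1139.9 and 837 FPKM at 10 ug/ml. Its groups were ordered by dose without overlap, with a log2 change of -0.28 ± 0.12 at 1 ug/ml that did not pass (limma adjusted p = 0.086) and of -0.86 ± 0.12 at 10 ug/ml that did (adjusted p = 3.83e-05). MT-CO1, which carries the haem-copper centre where complex IV reduces oxygen, measured 7288, 5577 and 6268 FPKM without doxycycline, 3578, 4083 and 4117 FPKM at 1 ug/ml, and 2982, 2769 and 2075 FPKM at 10 ug/ml. Each step was without overlap, and the change reached -1.30 ± 0.11 (adjusted p = 2.43e-07). MT-CO2, which takes electrons from cytochrome c, fell by 0.87 ± 0.12 (adjusted p = 3.7e-05), and MT-CO3 by 0.62 ± 0.12 (adjusted p = 0.000482).

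The complex IV genes of the mitochondrial genome did not move in proportion. MT-CO3 had 6919, 5469.8 and 5525 FPKM without doxycycline and 5134, 5700.1 and 5793 FPKM at 1 ug/ml, groups that overlapped (log2 change -0.10 ± 0.12). MT-CO1 was lower by 0.69 ± 0.11 at that dose (limma adjusted p = 0.000162). The ratio of MT-CO1 to MT-CO3 in B11 was accordingly 1.07 ± 0.059 (SD, n = 3) without doxycycline, 0.708 ± 0.00999 with 1 ug/ml and 0.669 ± 0.0148 with 10 ug/ml. It was between 0.959 and 1.03 as group means in THP1. A ratio within a library shows unequal change and says nothing of which gene was stable.

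The ATP synthase genes MT-ATP6, the proton-channel subunit, and MT-ATP8, a small membrane subunit, did not pass in any dose comparison of B11. MT-ATP8 measured 5713, 4726 and 4648 FPKM without doxycycline, 4722, 5451 and 5314 FPKM at 1 ug/ml, and 5989, 4793 and 3481 FPKM at 10 ug/ml. These groups overlapped fully (log2 change at 10 ug/ml -0.11 ± 0.17, limma adjusted p = 0.652). MT-ATP6 had 4750.3, 3509.9 and 3655 FPKM without doxycycline and 3768, 3426 and 2535 FPKM at 10 ug/ml, also overlapping (-0.30 ± 0.12, adjusted p = 0.0641, past 0.05 in 3 of 30 alternatives). Within the summed FPKM of the 13 genes in B11, MT-ATP8 went from 9.66 ± 0.478% to 14.6 ± 1.1% and MT-ATP6 from 7.59 ± 0.239% to 10 ± 0.06%, whereas MT-ND6 went from 2.57 ± 0.141% to 1.12 ± 0.0714%. Part of this shift was also seen in THP1 from 0 to 10 ug/ml. There MT-ATP6 went from 5.98 ± 0.111% to 7.35 ± 0.182% and MT-ND6 from 3.32 ± 0.0757% to 2.53 ± 0.155%, both without overlap. MT-ATP8 overlapped there, at 8.75 ± 0.428% and 9.77 ± 1.31%. With its 207 bases, MT-ATP8 is the shortest of the 13, and FPKM of such short genes depend most on how effective length was set.

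**Figure D4:**
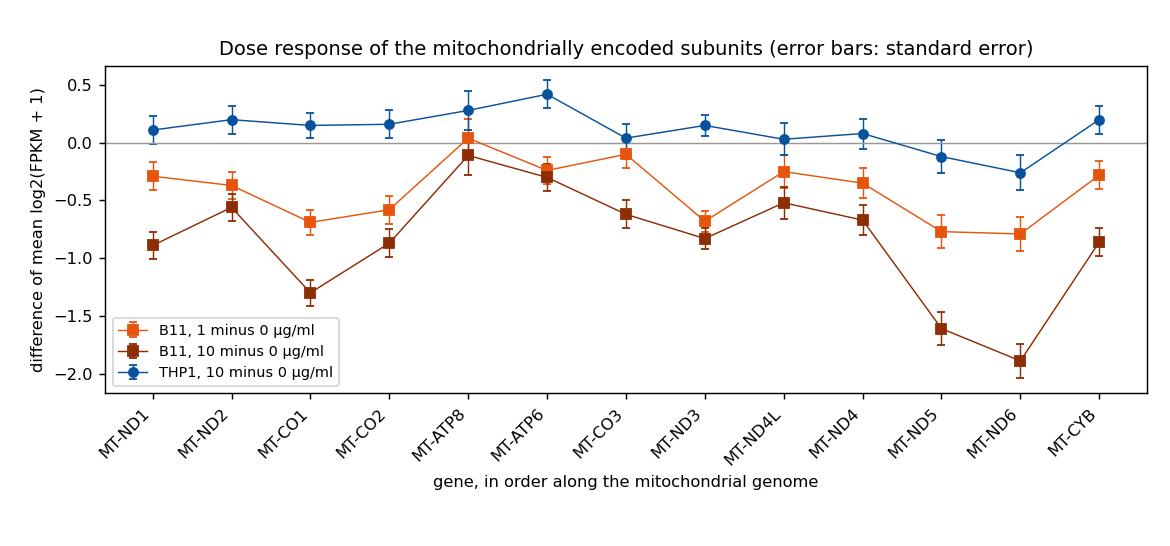
Log2 change with its standard error for each mitochondrially encoded subunit in gene order, in B11 at 1 and 10 ug/ml (squares) and THP1 at 10 ug/ml (circles), each against the untreated plates of its line. In B11 at 10 ug/ml the profile runs from -0.11 at MT-ATP8 to -1.89 at MT-ND6, and in THP1 from -0.26 at MT-ND6 to 0.42 at MT-ATP6.

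Between 1 and 10 ug/ml in B11, 6 mitochondrial members were lower and none higher (MT-ND6 -1.10, MT-ND5 -0.84, MT-CO1 -0.60, MT-ND1 -0.60, MT-CYB -0.58 and MT-CO3 -0.52), beside 7.12% of all genes lower. The count was 2 with only the compared groups in the fit and 1 with plate A as the sole 1 ug/ml plate of B11. Among nuclear members 24 were higher and none lower, beside 5.69% of all genes higher. That count rests on single libraries: it was 13 without plate C and 14 without plate A at 1 ug/ml, 12 without plate B or plate C at 10 ug/ml, and 5 with plate A as the sole 1 ug/ml plate. In B11 the group means of 12 of 13 mitochondrial members fell at each dose step, all but MT-ATP8, and those of 46 of 77 nuclear members rose at each step while 4 fell.

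The mitochondrial members varied together within groups. All 13 were above their group mean in plate A of untreated B11 and in plates A and B at 10 ug/ml, and all 13 were below it in plate B of untreated B11 and in plate C at 10 ug/ml, where the median deviation was -0.34 log2 units. In THP1 at 10 ug/ml all 13 were below the mean in plate B and above it in plate C. The 13 genes are thus not independent observations of a condition, and the count of members that passed does not measure how many separate events occurred.

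Of the 37 nuclear members with complex I symbols, NDUFA4 among them, 27 were higher and 4 lower in B11 at 10 than at 0 ug/ml, with a median log2 change of 0.42. The risers included subunits of the catalytic arm. NDUFS7, an iron-sulphur subunit near the quinone site (chr19:1383527-1395589), measured 93.8, 107 and 98.2 FPKM without doxycycline, 165, 178 and 173 FPKM at 1 ug/ml, and 226, 231 and 217 FPKM at 10 ug/ml. Its 3 doses did not overlap, and all 6 treated plates were above the highest THP1 library, 161 FPKM. The log2 change was 0.78 ± 0.09 at 1 ug/ml (limma adjusted p = 3.83e-06) and 1.17 ± 0.09 at 10 ug/ml (adjusted p = 3.92e-08).

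NDUFS8, another iron-sulphur subunit (chr11:68030617-68036644), had 171, 139 and 129 FPKM without doxycycline and 299, 316 and 288 FPKM at 10 ug/ml, a rise of 1.05 ± 0.09 (limma adjusted p = 3.8e-07) with no overlap. NDUFB6, an accessory subunit of the membrane arm (chr9:32552999-32573184), had 19.2, 26.3 and 35 FPKM without doxycycline, 59.7, 60.2 and 49.8 FPKM at 1 ug/ml, and 56.6, 62.1 and 65.5 FPKM at 10 ug/ml. Both treated groups lay above the untreated plates and overlapped each other, with changes of 1.08 ± 0.16 and 1.20 ± 0.16 (adjusted p = 5.55e-05 and 1.62e-05). NDUFS1, the largest subunit of the NADH-oxidising module, had 24.8, 22.6 and 27.9 FPKM without doxycycline and 48.4, 49.9 and 50.8 FPKM at 10 ug/ml, which did not overlap, and rose by 0.96 ± 0.12 (adjusted p = 1.25e-05). NDUFS7, NDUFB6 and NDUFS1 overlap exons of genes on the other strand (among them SMIM27 for NDUFB6 and EEF1B2 for NDUFS1), whose reads may be included.

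Rises of other complex I subunits were smaller. NDUFA9, an accessory subunit next to the quinone site, rose by 0.94 ± 0.13, and NDUFV1, the flavin subunit that takes electrons from NADH, by 0.31 ± 0.10 (limma adjusted p = 3.15e-05 and 0.016). The 4 complex I members that went down were the accessory membrane-arm subunits NDUFB1 (-0.39 ± 0.12) and NDUFB2 (-0.38 ± 0.10), the catalytic-arm subunit NDUFS3 (-0.28 ± 0.09) and the accessory flavoprotein subunit NDUFV3 (-0.25 ± 0.08). In each of the 4, all plates at 10 ug/ml were below all untreated ones. The calls of NDUFB1, NDUFV3, NDUFS3 and NDUFV1 were lost in 5, 5, 3 and 3 of 30 alternatives.

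Complex II, which oxidises succinate and has no mitochondrial gene, had 3 of 4 members higher. SDHA, its flavin subunit (chr5:218241-256700), measured 69.4, 72.7 and 57.5 FPKM in untreated B11, 88.7, 103 and 77.9 FPKM at 1 ug/ml, and 121, 114 and 121 FPKM at 10 ug/ml. Every treated plate was above every untreated one and, at 10 ug/ml, every plate was above the highest THP1 library, 66.2 FPKM. Its change was 0.43 ± 0.15 at 1 ug/ml (limma adjusted p = 0.0413, lost in 12 of 30 alternatives) and 0.83 ± 0.15 at 10 ug/ml (adjusted p = 0.000471). SDHB, the iron-sulphur subunit, rose from 152, 157 and 165 to 253, 243 and 262 FPKM, again without overlap, by 0.67 ± 0.06 (adjusted p = 3.9e-07). The membrane anchors moved less: SDHD changed by 0.31 ± 0.10 (adjusted p = 0.0222, lost in 5 of 30 alternatives) and SDHC by 0.12 ± 0.08, which did not pass.

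In complex III, 5 of 9 nuclear members were higher and 1 lower at 10 ug/ml. CYC1, the haem-bearing cytochrome c1 subunit, had 146, 121 and 137 FPKM without doxycycline, 241, 266 and 246 FPKM at 1 ug/ml, and 269, 286 and 269 FPKM at 10 ug/ml. The untreated plates lay below all other libraries of both lines, and all plates at 10 ug/ml were above the untreated and the 1 ug/ml plates, with a change of 1.03 ± 0.06 against the untreated ones (limma adjusted p = 7.64e-09). UQCRC1, a core subunit, rose from 264, 239.7 and 261 to 450.2, 461 and 442 FPKM, by 0.82 ± 0.06 (adjusted p = 8.33e-08), and UQCRFS1, the Rieske iron-sulphur subunit, by 0.35 ± 0.09 (adjusted p = 0.00652).

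Of the small subunits of complex III, UQCRB, UQCR11 and UQCRH responded differently to the 2 doses. UQCRQ and UQCR10 did not go down at 1 ug/ml, at 0.24 ± 0.11 and 0.13 ± 0.08 without a call. At 10 ug/ml both were higher, by 0.62 ± 0.11 and 0.23 ± 0.08, the latter call lost in 8 of 30 alternatives. UQCRB, a quinone-site subunit, had 535, 580.3 and 608 FPKM without doxycycline, 403, 384 and 358 FPKM at 1 ug/ml, and 463, 480.5 and 506 FPKM at 10 ug/ml. All treated plates were lower than untreated ones, and those at 1 ug/ml were the lowest of B11. Its changes were -0.59 ± 0.09 at 1 ug/ml (limma adjusted p = 7.3e-05) and -0.25 ± 0.09 at 10 ug/ml (adjusted p = 0.0318, lost in 8 of 30 alternatives). UQCR11 (-0.51 ± 0.09) and UQCRH, the hinge subunit (-0.40 ± 0.06), were also lower at 1 ug/ml and at 10 ug/ml were no longer called, at -0.02 ± 0.09 and -0.05 ± 0.06. From 1 to 10 ug/ml UQCRB, UQCR11 and UQCRH rose by 0.34, 0.49 and 0.35 (adjusted p = 0.0179, 0.00237 and 0.00229).

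In complex IV, 8 of 10 nuclear members were higher at 10 ug/ml and none lower, with a median of 0.52. COX8A, a small membrane-spanning subunit (chr11:63974607-63976543), had 484, 483 and 547 FPKM without doxycycline, 831, 918 and 913 FPKM at 1 ug/ml, and 958, 1003 and 977 FPKM at 10 ug/ml. The doses did not overlap, and all treated plates exceeded the highest THP1 library, 704 FPKM. Its change at 10 ug/ml was 0.96 ± 0.06 (limma adjusted p = 6.87e-09). COX7B, also a small membrane subunit, rose by 0.77 ± 0.13, and COX5A and COX5B, subunits on the matrix side, by 0.65 ± 0.07 and 0.64 ± 0.08. COX4I1, which is among the first nuclear subunits to join MT-CO1 in assembly, had 826, 816 and 852 FPKM without doxycycline and 781, 934 and 886 FPKM at 10 ug/ml, overlapping groups (0.06 ± 0.07). Thus within the same complex MT-CO1, MT-CO2 and MT-CO3 were lower while COX8A, COX7B, COX5A and COX5B were higher.

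In ATP synthase, 10 of 17 tested nuclear members were higher and 2 lower at 10 ug/ml. ATP5F1B, the catalytic beta subunit and the most abundant nuclear member (chr12:56638175-56646068), had 1375, 1381 and 1474 FPKM without doxycycline, 1977, 1964 and 1836 FPKM at 1 ug/ml, and 2166, 2422 and 2513 FPKM at 10 ug/ml. These groups did not overlap, and the change was 0.74 ± 0.09 (limma adjusted p = 9.07e-06). The alpha subunit gene ATP5F1A rose by 0.40 ± 0.13 (adjusted p = 0.0249, lost in 5 of 30 alternatives) and the gamma subunit gene ATP5F1C by 0.46 ± 0.08 (adjusted p = 0.000241). In the membrane sector, ATP5MD rose by 0.86 ± 0.09, and ATP5MC3 and ATP5MC1, whose products are the same mature c subunit of the rotor, by 0.84 ± 0.07 and 0.83 ± 0.12.

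ATP5F1E, the small epsilon subunit of the central stalk (chr20:59025467-59032382), went the other way. It measured 289.8, 277 and 297 FPKM in untreated B11, 161, 159.6 and 169 FPKM at 1 ug/ml, and 158, 194 and 174 FPKM at 10 ug/ml. All 6 treated plates were below all untreated ones, the 2 treated groups overlapped, and every THP1 library (218 to 267 FPKM) lay between. The log2 change was -0.82 ± 0.08 at 1 ug/ml and -0.72 ± 0.08 at 10 ug/ml (limma adjusted p = 2.13e-06 and 6.42e-06), the largest fall of a nuclear member at either dose. ATP5MG, the g subunit, was the other lower member, at -0.28 ± 0.10 (adjusted p = 0.0358, lost in 7 of 30 alternatives). ATP5F1E overlaps exons of TUBB1 on the other strand and has 2 annotated pseudogenes, whose part in its value was not tested.

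**Figure D5:**
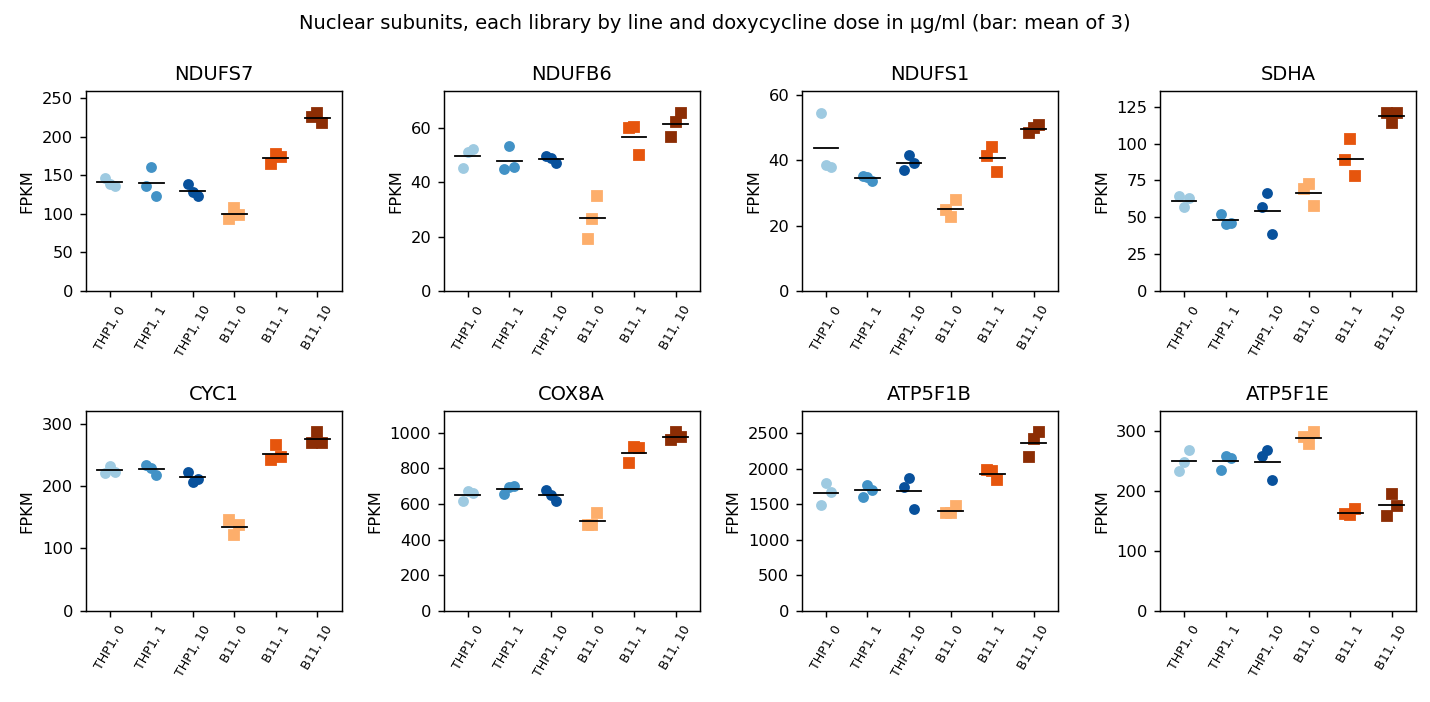
FPKM of 8 nuclear subunits in each library by line and dose, with a bar at the group mean and axes starting at 0. In 7 of them untreated B11 is the lowest group of B11 and the 10 ug/ml group the highest, whereas ATP5F1E is at 277 to 297 FPKM in untreated B11 and at 158 to 194 FPKM in treated plates.

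At 1 ug/ml the 8 nuclear members that were lower in B11 were ATP5F1E, UQCRB, UQCR11, ATP5MG (-0.45), UQCRH, NDUFV3 (-0.26), ATP5PF (-0.24) and COX6B1 (-0.21). ATP5PF, a coupling-factor subunit of the ATP synthase stalk, and COX6B1, a subunit facing the intermembrane space in complex IV, were both higher at 10 than at 1 ug/ml, by 0.52 ± 0.09 and 0.24 ± 0.07 (limma adjusted p = 0.00123 and 0.0396).

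In THP1, none of the 13 mitochondrial and none of the 77 nuclear members passed in limma in any dose comparison. At an unadjusted p under 0.05 there were 0, 1 and 1 mitochondrial and 4, 2 and 4 nuclear members at 1 against 0, 10 against 0 and 10 against 1 ug/ml. Few genes of any kind passed in this line: 0.0057% higher and 0.0057% lower at 1 against 0 ug/ml, 0.0968% and 0.923% at 10 against 0 ug/ml, and 0.0513% and 0.245% at 10 against 1 ug/ml. The median changes at 10 against 0 ug/ml were 0.15 for mitochondrial and -0.02 for nuclear members. MT-ATP6 moved most, from 2099, 2118 and 2095 to 2888, 2642 and 2945 FPKM without overlap, 0.42 ± 0.12 with an adjusted p of 0.156. It was past 0.05 in 1 of 30 alternatives, the fit without plate C of B11 at 10 ug/ml. MT-ND6, at 1129, 1159 and 1214 FPKM without and 1022, 838 and 1072 FPKM with 10 ug/ml, also did not overlap and did not pass (-0.26 ± 0.15).

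The difference of the dose response between the lines was tested directly. For 10 against 0 ug/ml, the response of 12 of 13 mitochondrial members was lower in B11 than in THP1 (median difference -0.99), beside 13.8% of all genes, and none was higher. MT-ATP8 was the exception, and MT-ND4L passed narrowly, with its call lost in 22 of 30 alternatives. The largest differences were MT-ND6 at -1.63 ± 0.22, MT-ND5 at -1.49 ± 0.20 and MT-CO1 at -1.45 ± 0.16 (limma adjusted p = 4.39e-05, 5.17e-05 and 6.48e-06). Of the nuclear members 42 had a higher response in B11, beside 16% of all genes, and 2 a lower one, ATP5F1E (-0.70 ± 0.12) and NDUFS3 (-0.40 ± 0.13). NDUFS7 (1.28 ± 0.12), NDUFB6 (1.23 ± 0.22), CYC1 (1.10 ± 0.09) and SDHA (1.04 ± 0.22) were among the highest. For 1 against 0 ug/ml, 6 mitochondrial members had a lower response in B11, beside 11.6% of all genes, and 27 nuclear members had a higher and 6 a lower one, beside 14.3% of all genes higher. The mitochondrial count was 10 without plate C of B11 at 10 ug/ml or with only the compared groups, and the nuclear total of 33 was 19 when plates B and C of the 1 ug/ml B11 group were left out.

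Untreated B11 already differed from untreated THP1, with the genomes again apart. In B11 9 mitochondrial members were higher and none lower (median 0.45), and 11 nuclear members were higher and 39 lower (median -0.24). Over all genes 23.5% were higher and 23.6% lower. MT-CO1 was higher by 0.98 ± 0.11, MT-ATP6 by 0.90 ± 0.12, MT-CO3 by 0.82 ± 0.12 and MT-ATP8 by 0.70 ± 0.17 (limma adjusted p = 3.96e-06, 2.41e-05, 3.24e-05 and 0.00371), so members of complexes IV and V stood furthest above the parent line. MT-ND5, MT-ND6, MT-ND4 and MT-ND4L, all of complex I, did not pass. The mean of untreated B11 was above all 3 THP1 group means for 13 of 13 mitochondrial members and below all 3 for 53 of 77 nuclear ones. This comparison shares the untreated B11 plates with the dose comparisons.

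Among nuclear members, NDUFA6, an accessory subunit of complex I, stood furthest below THP1. It measured 157, 166 and 157 FPKM in untreated THP1 and 74.5, 69.1 and 83.9 FPKM in untreated B11, with no overlap and a difference of -1.07 ± 0.09 (limma adjusted p = 2.27e-07). NDUFB6 (-0.90 ± 0.16), ATP5MF, the f subunit of ATP synthase (-0.79 ± 0.06), NDUFS1 (-0.76 ± 0.12), CYC1 (-0.74 ± 0.06) and COX7B (-0.71 ± 0.13) were also lower. On the other side, ATP5F1C had 148, 175 and 165 FPKM in THP1 and 265, 309 and 302 FPKM in B11 (0.84 ± 0.08, adjusted p = 5.24e-07). COX7C, a small subunit of complex IV, was higher by 0.70 ± 0.08 and NDUFS4, an accessory subunit of the NADH-oxidising module, by 0.69 ± 0.09.

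At 10 ug/ml the comparison of the lines had the opposite balance. No mitochondrial member was higher and 8 were lower in B11 (median -0.44), led by MT-ND6 (-1.44 ± 0.15) and MT-ND5 (-1.28 ± 0.14), and 34 nuclear members were higher and 8 lower (median 0.19), beside 16.4% higher and 16% lower of all genes. The mitochondrial count was 5 with only the compared groups in the fit. ATP5F1C (1.27 ± 0.08), NDUFS4 (1.20 ± 0.09), SDHA (1.15 ± 0.15) and ATP5MD (1.14 ± 0.09) stood highest. The 8 lower nuclear members were NDUFB1, ATP5F1E, ATP5MF, NDUFS3, NDUFB2, NDUFC1, NDUFC2 and NDUFA11, with differences from -0.67 to -0.15, the last 3 lost in 20, 16 and 18 of 30 alternatives. At 1 ug/ml, 3 mitochondrial members were higher (MT-ATP8, MT-CO3 and MT-ATP6) and 3 lower (MT-ND6, MT-ND5 and MT-ND3), and 13 nuclear members were higher and 20 lower, beside 15% and 14.8% of all genes. With plate A as the sole 1 ug/ml plate of B11, the totals of 6 and 33 were 2 and 17.

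Some nuclear members differed between the lines at either end of the dose range. NDUFA2, NDUFS4, UQCRH, COX7C, ATP5F1C, ATP5MC2, ATP5MD and ATP5PD were higher in B11 than in THP1 both without doxycycline and at 10 ug/ml. These comparisons share no library, but all plates of a line came from 1 culture. The share of all genes on the same side at both ends is not given here. UQCRH was called lower in B11 at 1 ug/ml (means of 649 FPKM in B11 and 759 FPKM in THP1, lost in 4 of 30 alternatives). Its calls without doxycycline and at 10 ug/ml were each lost in 8 of 30, and those of ATP5MC2 in 3 and 4. On the other side 3 members, ATP5MF, NDUFA11 and NDUFC2, were lower in B11 at both, the last 2 with calls at 10 ug/ml that were lost in 18 and 16 of 30 alternatives. ATP5MF was at 1184 to 1540.5 FPKM in THP1 and at 788 to 971 FPKM in B11. ATP5F1C, for example, was at 144 to 175 FPKM in the 9 THP1 libraries and at 265 to 413 FPKM in the 9 B11 libraries. NDUFS4 was at 53.8 to 72.7 FPKM in THP1 and at 99.7 to 154 FPKM in B11. The plates of the 2 lines did not overlap for ATP5MF, ATP5F1C or NDUFS4 at any dose.

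Within single complexes the balance between the genomes moved by more than the spread between plates. The median of the mitochondrial minus that of the nuclear members of complex I was 4.37 ± 0.13 log2 units (SD, n = 3) in untreated plates of B11, 3.47 ± 0.07 with 1 ug/ml and 3.05 ± 0.34 with 10 ug/ml. For complex IV it was 3.45 ± 0.26, 2.72 ± 0.16 and 2.13 ± 0.36, and for complex III, which has MT-CYB alone, 2.93 ± 0.15, 2.27 ± 0.09 and 1.24 ± 0.30. For complex V it was 3.80 ± 0.26, 3.46 ± 0.09 and 3.15 ± 0.40. In each complex the untreated plates were above those at 10 ug/ml without overlap. THP1 group means lay at 3.71 to 3.84 for complex I, 2.17 to 2.40 for complex III, 2.21 to 2.33 for complex IV and 2.66 to 2.98 for complex V.

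The mitochondrial ribosomal RNAs, cut from the same polycistronic transcripts, moved in the same direction as the mitochondrial subunits in B11 at either dose against 0 ug/ml. MT-RNR2 measured 4781, 3783 and 3707 FPKM without doxycycline and 2843, 2578 and 2032 FPKM at 10 ug/ml, with no overlap and a change of -0.72 ± 0.11 (limma adjusted p = 7.44e-05). MT-RNR1 fell by 0.69 ± 0.10 (adjusted p = 5.26e-05), with means of 661, 407 and 407 FPKM at 0, 1 and 10 ug/ml. Both were higher in untreated B11 than in untreated THP1, by 1.50 ± 0.11 and 0.97 ± 0.10. At 10 ug/ml they parted from the subunits, with a median difference of 0.50 from THP1, beside -0.44 for the subunits. The means there were 2484 FPKM in B11 and 1305 FPKM in THP1 for MT-RNR2, and 407 and 386 FPKM for MT-RNR1. Whether polyadenylated RNA was selected, which affects how much ribosomal RNA is seen, is not stated in the labels.

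The nuclear genes that act on mitochondrial DNA and RNA did not follow the mitochondrial transcripts downwards as a list. Of 27 tested genes of mitochondrial transcription and RNA handling, 14 were higher and 2, MTERF4 and FASTKD1, lower in B11 at 10 ug/ml (median 0.33). Of all genes 21.6% were higher and 21.3% lower. TFAM, which packages mitochondrial DNA and starts its transcription, rose by 1.17 ± 0.14 from a mean of 15.8 to 36.2 FPKM, and LRPPRC, which stabilises mitochondrial messenger RNAs, by 1.23 ± 0.12 from 45 to 107 FPKM (limma adjusted p = 7.86e-06 and 1.34e-06). PNPT1, a mitochondrial RNA-degrading enzyme, rose by 1.48 ± 0.23 and ELAC2, which cuts tRNAs out of the transcripts, by 0.85 ± 0.13. Among 17 genes of mitochondrial DNA maintenance, 6 were higher and 3, TK2, POLG2 and TOP1MT, lower (median 0.16), beside the same shares of all genes. RNASEH1, which removes RNA paired with DNA, rose by 0.94 ± 0.15, and the topoisomerase TOP1MT changed by -0.41 ± 0.08.

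Of 10 tested regulators of mitochondrial biogenesis none was higher and 2 were lower, the deacetylase SIRT3 (-1.02 ± 0.17) and the nuclear receptor ESRRA (-0.41 ± 0.13), with a median of 0.23. The lower shares of this list and of DNA maintenance are near the 21.3% of all genes that were lower, and are no result about these lists. NRF1, GABPA and YY1, named after their values were seen because the promoter motifs above bear their names, did not pass, at 0.34 ± 0.16, 0.02 ± 0.17 and 0.27 ± 0.13. Of 20 complex I assembly factors 10 were higher and none lower (median 0.36), beside 21.6% higher and 21.3% lower of all genes. They were led by NDUFAF4 (1.11 ± 0.09) and NDUFAF2 (1.26 ± 0.18). Assembly factors of complexes II to V were mixed, with 14 of 36 higher and 6 lower (median 0.17), beside the same shares of all genes. Their lower share is near that of all genes and is no result about this list. UQCC2, for complex III, rose from a mean of 129.7 to 334 FPKM (1.36 ± 0.06, adjusted p = 1.27e-10), and SURF1, for complex IV, fell by 1.02 ± 0.10.

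Mitochondrial chaperones and proteases had the highest median of the lists, 0.85, with 10 of 13 higher and 1, the protease subunit gene SPG7, lower, beside 21.6% and 21.3% of all genes. HSPD1 and HSPE1, the matrix chaperonin and its partner, rose from means of 204 and 78.7 FPKM to 620.3 and 293 FPKM (1.60 ± 0.08 and 1.90 ± 0.12), HSPA9 by 1.40 ± 0.09 and the protease LONP1 by 1.81 ± 0.11. Of 7 tested isoforms and associated proteins outside the subunit rule 3 were higher and none lower, ATP5IF1, COX7A2L and CYCS. CYCS, cytochrome c itself, rose from a mean of 63.8 to 168 FPKM (1.39 ± 0.12, limma adjusted p = 3.24e-07). In THP1 at 10 against 0 ug/ml only 1 gene of all these lists passed, the complex I assembly factor DMAC1, which was higher. The genes named for their counts here (MTERF4, FASTKD1, TK2, POLG2 and SPG7) were chosen after their values were seen.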

How the data were processed

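The authors deposited 1 table of FPKM values for 60658 gene IDs in 18 libraries, made with HISAT2 alignment to GRCh38 and Cuffnorm, per the submitters' processing notes. Versions, annotation release and the scaling for depth: not given in the sources used here. IDs were named with GENCODE 29 (57047 named, 3611 not). Groups came from the labels, and no column was unmatched.

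Values were analysed as log2(FPKM + 1), which understates changes of low genes. The 17555 genes that reached 1 FPKM in 3 or more libraries were fitted with limma 3.58.1 in R 4.3.3, with 6 group means, a mean-variance trend and 12 residual degrees of freedom. Within each of 11 contrasts, p-values were adjusted by Benjamini-Hochberg over all tested genes, and an adjusted p under 0.05 was a call. Errors of log2 changes are SE. Scripts ran in Python 3.11.15 and were tested on simulated data.

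The members and the lists (mitochondrial transcription, DNA maintenance, biogenesis regulators, assembly factors, isoforms, chaperones, ribosomal RNA and cell type markers) were chosen with earlier results of these data known. Members eligible to be named were all mitochondrial ones, the SDH genes, 13 core nuclear subunits, up to 3 called members with the largest change per complex, direction and comparison, those called against the majority and those that failed the filter. For each list, up to 4 called genes with the smallest p were eligible. The 30 alternatives covered pseudocount, filter, scaling, moderation, samples fitted, a replicate block, gene length, and leaving out each of 18 libraries or an outlying pair. Values of some eligible genes are not reported here.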

Additional observations from a re-analysis of the deposited data

Results flagged for a closer look

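The difference of the dose response between B11 and THP1, tested in limma as an interaction of line and dose, marked several results. Between 0 and 1 ug/ml it passed for 6 of 13 mitochondrial subunits, all lower in B11, and 33 of 77 nuclear ones (27 higher, 6 lower). Of all genes 14.3% were higher and 11.6% lower. Between 0 and 10 ug/ml it passed for 12 mitochondrial subunits, all lower, and 44 nuclear ones (42 higher, 2 lower). Of all genes 16% were then higher and 13.8% lower. Among mitochondrial subunits, the response to 10 ug/ml was lower in B11 by a log2 difference of -1.63 for MT-ND6, -1.49 for MT-ND5, -1.45 for MT-CO1 and -1.06 for MT-CYB. Among nuclear subunits it was higher by 1.28 for NDUFS7, 1.23 for NDUFB6, 1.10 for CYC1, 1.10 for NDUFS1 and 1.08 for NDUFA6. In all 9 genes the 3 plates of B11 at 10 ug/ml lay on 1 side of the 3 untreated B11 plates. The 9 genes were named for the size of a difference that includes these plates, so their separation is no separate support. Doxycycline itself was given to both lines, and the induced NRAS, the edited locus and the clonal origin of B11 cannot be told apart as sources of the difference.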

How the results depend on the processing

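No called result changed direction under any of 30 alternatives. Of 71 subunits called in B11 at 10 against 0 ug/ml, 55 kept their call in all 30, as did 34 of 52 at 1 against 0, 4 of 30 at 10 against 1, 45 of 59 between the untreated lines, 19 of 39 between the lines at 1 and 29 of 50 at 10 ug/ml, and 22 of 39 and 46 of 56 for the line differences in response to 1 and 10 ug/ml.

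With only the compared groups fitted, mitochondrial calls were 2 for B11 at 10 against 1 ug/ml (6 in the reported fit), 5 between the lines at 10 ug/ml (8) and 10 for the difference in response to 1 ug/ml (6). Without plates B and C of the 1 ug/ml B11 group, which leaves 1 plate assumed to vary like the other groups, mitochondrial calls were 1 for 10 against 1 ug/ml and 2 between the lines at 1 ug/ml, and nuclear calls 5, 17 and 19 for 10 against 1 ug/ml, the lines at 1 ug/ml and the difference in response to 1 ug/ml. Nuclear calls for 10 against 1 ug/ml were 11 without a filter and 15 without a trend (24), and without a filter 26 between the lines at 10 ug/ml (42). The cause was not tested.

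Leaving out 1 library gave 0 to 1 mitochondrial calls in THP1 at 10 against 0 ug/ml, 5 to 10 for the difference in response to 1 ug/ml, and 12 to 26 nuclear calls for B11 at 10 against 1 ug/ml. The mitochondrial share over protein-coding FPKM was 3.7, 3.99 and 4.11% in THP1 at 0, 1 and 10 ug/ml, and 5.1, 4.25 and 3.25% in B11. Over all FPKM, the genes of the mitochondrial genome, ribosomal RNA included, made up 3.44, 3.69 and 3.78% in THP1 and 4.82, 3.94 and 3.15% in B11 at these doses. The mitochondrial subunits alone made up 3.27, 3.52 and 3.62% of all FPKM in THP1 and 4.42, 3.62 and 2.89% in B11. As a mean over members, the mitochondrial level was 11.34 in THP1 at 1 and 10 ug/ml, 11.33 in B11 at 1 and 10.89 at 10 ug/ml, and the nuclear level 7.93 and 8.13 in B11 at 1 and 10 ug/ml.

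Plate letters did not pair the samples: same-letter plates of different groups correlated at -0.0705 to 0.0923, and 0 of 45 pairs passed 0.1. With a replicate block, B11 at 10 against 0 ug/ml had 11 mitochondrial and 61 nuclear calls, and no count moved by over 1.5 times.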
